A study of Homo sapiens with 13 samples.

Results

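FOXA1 ChIP peaks, called sites here, were described from the peak lists of the endometrial cancer cell lines Hec1A and Ishikawa. The sites were sharply centred in Hec1A and had no listed counterpart nearby in Ishikawa. The sites were chosen by 2 measured values. Their deposited focus ratio, a fraction that says how tightly the sequenced tags surround the peak centre, had to be at least 0.85, and no Ishikawa peak centre could lie within 50 kb on the same chromosome. Only autosomes were used. This left 355 of 12818 autosomal Hec1A peaks. Of the 12818 peaks, 4852 met the focus ratio and 1018 met the distance. The whole Hec1A list held 13252 peaks and the Ishikawa list 54855 peaks. Because focus ratio and distance picked the sites, both are given below as descriptions only.

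FOXA1 is a forkhead transcription factor. It can bind its sites on DNA that is wrapped in nucleosomes, and in hormone-responsive epithelia such as breast, prostate and endometrium it is known for opening enhancers that the oestrogen, progesterone and androgen receptors then use. Its binding pattern differs between cell types, so sites bound in 1 endometrial line and not in another are of interest for the enhancers each line uses. Per the labels, FOXA1 was immunoprecipitated with the rabbit antibody ab23738 and sequenced (ChIP-seq), in 3 Hec1A and 6 Ishikawa libraries, with 2 input libraries (chromatin without immunoprecipitation) of each line. No treatment is named for either line. Libraries were made with ThruPLEX or TruSeq kits, which were both used in each line's pool, so the kits cannot be told apart. Each line is 1 established culture and stands for itself, not for endometrial tumours in general.

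The libraries of each line were pooled before peaks were called, which gave 1 list per line. The Hec1A pool held 143055568 tags and the Ishikawa pool 343739762 tags. No value below has a replicate error, and no test between the lines or between classes of peaks was made. The 95% intervals cover counting error only and treat peaks as independent. The Ishikawa peaks had to exceed their input by a fold of 4. The name of the Hec1A list refers to inputs, but its recorded call names none, and its header and columns hold no input values, unlike those of Ishikawa. Without a recorded input, a Hec1A peak is not by itself shown to be FOXA1 binding. Nor does the absence of an Ishikawa peak show that FOXA1 was absent there. The tag threshold of the call was 2.24 per 10000000 tags in Hec1A, against 2.56 in Ishikawa. In Hec1A it corresponds to 32.0 tags, the lowest score of the 355 sites, whereas their lowest signal was 2.17. Of the 355 sites, 335 had a Hec1A signal at or above the Ishikawa level. Signal and score do not count tags alike, as described below, and peak widths differed between the lines. The number of 335 therefore does not show how many sites would have passed the Ishikawa threshold.

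The 355 sites differed among themselves in how their tags were stacked, and most had no other of these sites within 50 kb. Their deposited signal, the tags of a peak per 10000000 tags of the pool (normalised tags), ranged from 2.17 to 1243, with a median of 5.73 (95% order-statistic interval 5.38 to 6.43) and quartiles of 4.19 and 9.69. Their median fold over the surrounding 10000 bp was 6.75 (6.34 to 7.12), with quartiles of 4.99 and 10.5. They made up 2.77% of the autosomal Hec1A peaks and held 5.77% of the signal in those peaks. The 51 sites in regions poor in peaks, described below, held 3.41% of the autosomal signal, and the other 304 held 2.36%.

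For comparison, 3 classes of autosomal Hec1A peaks were used. The first held 2967 peaks of the same focus ratio that overlapped an Ishikawa peak by at least 1 bp. The next held 1530 peaks of the same focus ratio that had an Ishikawa centre within 50 kb without overlap, called nearby sites here. The last held 663 peaks that lay as far from Ishikawa peaks but had a focus ratio below 0.85, called unfocused far peaks.

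The far focused sites had signal close to that of the nearby sites and below that of the overlapping sites. The median signal was 5.73 in the 355 sites, against 5.87 (5.66 to 6.01) in nearby sites and 8.95 (8.60 to 9.23) in overlapping sites. It was 3.98 (3.84 to 4.19) in unfocused far peaks. The median local fold was 6.75 in the far focused sites, 6.33 (6.18 to 6.53) in nearby sites, 9.36 (9.12 to 9.68) in overlapping sites and 4.93 (4.83 to 5.07) in unfocused far peaks. A fold of at least 8 was reached by 135 of the 355 sites, or 38.0% (95% Wilson interval 33.1% to 43.2%), where 26.0% of all autosomal Hec1A peaks reached it. The share was 38.0% against 33.1% in nearby sites, a difference of 4.96 percentage points (Newcombe interval -0.495 to 10.6), and against 60.0% in overlapping sites, a difference whose interval ran from -27.2 to -16.5 points. In unfocused far peaks it was 10.7%, a difference of 27.3 points (21.8 to 32.9). The local background, computed as signal over local fold, was 0.864 normalised tags at the median site (0.813 to 0.917), against 0.901 in nearby and 0.908 in overlapping sites.

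**Figure D1:**
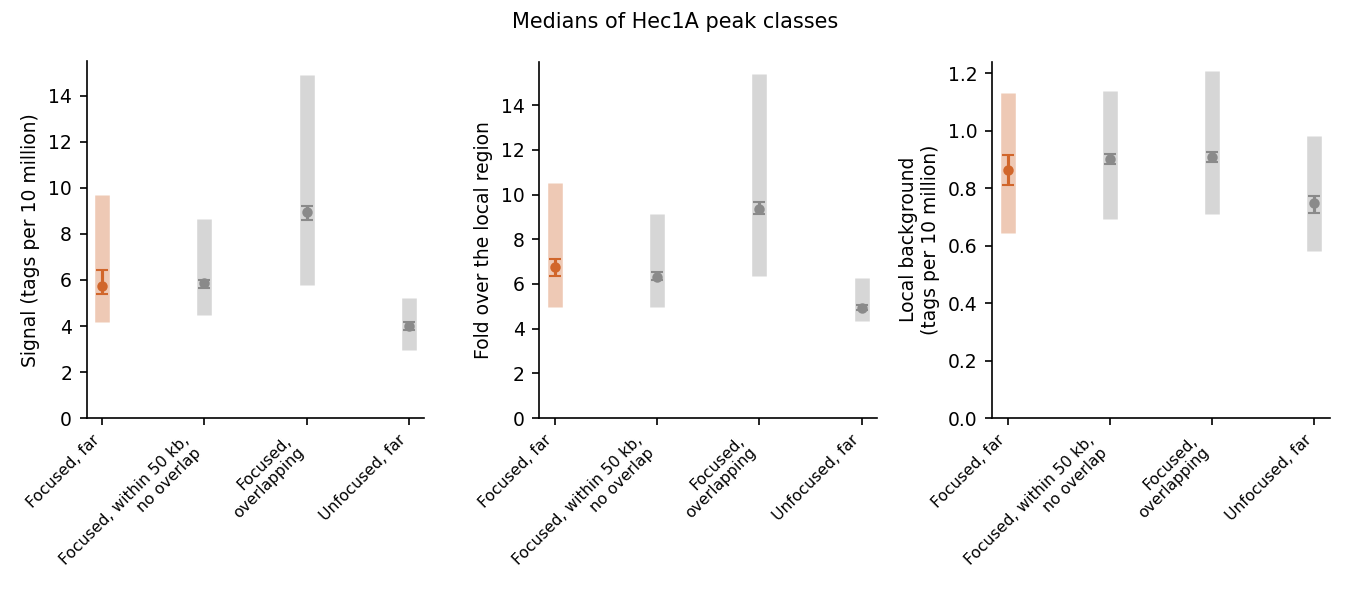
Medians of signal, of fold over the local region and of local background (vertical axes from 0) in 4 classes of autosomal Hec1A peaks, with the 355 far focused sites on the left. Points are medians, whiskers their 95% order-statistic intervals and bars the quartiles. The far focused sites lie beside the nearby sites in all 3 panels, and the overlapping sites lie above them in signal and fold.

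The 355 sites were divided by how far their tags were stacked. The deposited clonal fold compares the number of tag positions expected for a peak with the number its tags occupy, so a high value marks tags stacked on few positions, and the authors' filter removed peaks above a fold of 2. The values gathered at both ends of the range. A clonal fold above 0.6 and up to 0.7 was found in 81 sites, whereas 11 sites lay above 0.9 and up to 1. In wider bands, 27 sites lay above 1 and up to 1.2, and 69 sites above 1.8 and up to 2. Peaks with a clonal fold up to 1 are called low-clonality here, and all others high-clonality. Low clonality was found at 161 sites, or 45.4% (40.3% to 50.6%), where 71.1% of all autosomal Hec1A peaks were called so. The other 194 sites had a median clonal fold of 1.67.

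The interval of the difference from nearby sites included 0, and that from overlapping sites did not. The share stood at 45.4% in the far focused sites and 46.6% in nearby sites, a difference of -1.25 points (Newcombe interval -6.93 to 4.52). In overlapping sites it was 81.7%, a difference of -36.4 points (-41.7 to -31.0). In unfocused far peaks it was 54.9%, a difference of -9.55 points (-15.9 to -3.11). Both classes of focused peaks without an overlapping Ishikawa peak thus held fewer low-clonality peaks than the class with one. With distances of 20, 100 or 250 kb in place of 50 kb, the share was 45.2%, 41.0% and 45.7%.

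The difference from overlapping sites was present at each level of signal. Below 5 normalised tags, 58.7% of the far focused sites (81 of 138) had low clonality, against 91.7% of overlapping sites. From 5 to below 10 the shares were 29.1% (39 of 134) and 77.4%. From 10 upwards they were 49.4% (41 of 83) and 81.3%. Nearby sites had 48.2%, 39.9% and 59.0% at these levels, and unfocused far peaks 61.1%, 39.2% and 38.2%. The far focused sites were thus above nearby sites in the lowest band and below them in the other bands, but the intervals overlapped in each band. Without peak-poor regions their shares were 59.1%, 30.6% and 60.0% (39 of 65), against 48.0%, 39.9% and 59.0% in nearby sites, so that in the top band they were no longer below them.

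**Figure D2:**
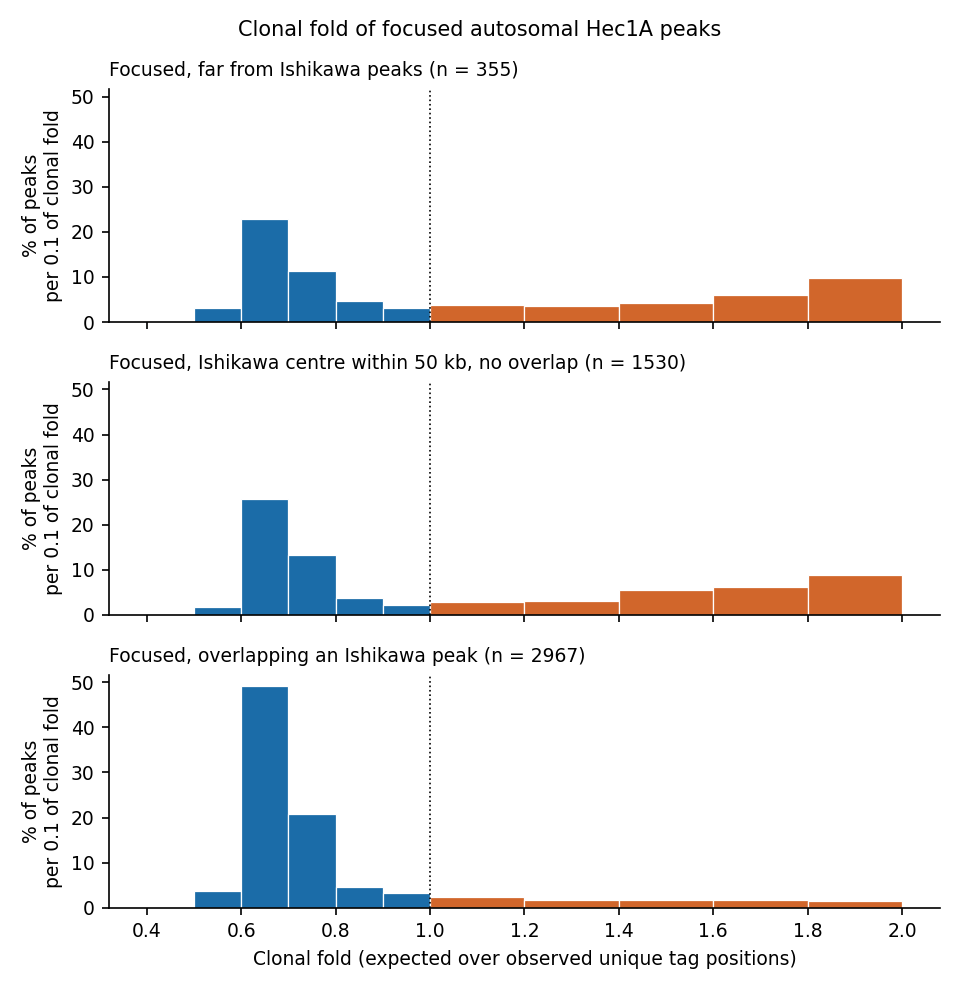
Distribution of the clonal fold (horizontal axis) in far focused sites, nearby sites and overlapping sites from top to bottom, as the percentage of peaks per 0.1 of clonal fold (vertical axis). Values up to 1 are blue and higher values orange. The 355 far focused sites and the 1530 nearby sites have a second mass of peaks towards 2, where the 2967 overlapping sites have few.

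The tags behind each score were set beside the clonal fold, although both depend on tags sharing positions and are not independent measures. The findPeaks score is a tag number, and per the file headers at most 7 tags per position were considered in Hec1A. Signal converted to tags and divided by the score had a median of 0.984 in the 161 low-clonality sites and 1.94 in the 194 high-clonality sites. The medians were 0.981 and 2.00 in nearby sites and 0.985 and 2.00 in overlapping sites, so this split was not particular to the far focused sites. More than 2 tags per unit of score were found at 82 of the 355 sites, or 23.1%, against 10.5% of all autosomal Hec1A peaks. The share was 26.2% in nearby sites, 9.13% in overlapping sites and 13.1% in unfocused far peaks. Of the 161 low-clonality sites 1 was among the 82, chr10:42385091-42385345, with a clonal fold of 0.88 and 10.0 tags per unit of score. A low clonal fold thus did not mark spread tags at this site, which had the highest signal. The low-clonality sites had the higher scores, with a median of 72.0 against 44.5. Scores were split alike in nearby sites (93.0 against 38.0) and in overlapping sites (126 against 66.0). The median signal of the far focused sites was 4.96 (4.54 to 6.64) at low clonality against 5.77 (5.45 to 6.50) at high clonality. Outside peak-poor regions, described below, the order of the median signals was the reverse, with 6.08 (4.61 to 7.34) at 145 low-clonality sites and 5.59 (5.38 to 6.36) at 159 high-clonality sites, and in both cases the intervals overlapped. Over all 161 low-clonality sites the median local background was 0.788 (0.732 to 0.857). At all 194 high-clonality sites the interval of this median was 0.864 to 0.988. Outside peak-poor regions these intervals overlapped, with 0.762 to 0.878 at low-clonality sites and 0.848 to 0.970 at high-clonality sites. What part repeated reads have in the stacked sites was not tested.

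Far sites were a larger share of the focused peaks of low score than of those of high score. They were 7.32% of all focused peaks (6.62% to 8.08%). In the lowest score decile of the focused peaks they were 15.0% (73 of 486), and in the highest 5.14% (25 of 486). Of the 100 focused peaks of highest score 7 were far sites, of which 5 lay in peak-poor regions. Of the 1000 highest, 44 were far sites. Among low-clonality focused peaks, far sites were 4.88% (161 of 3299), and among high-clonality ones 12.5% (194 of 1553). Among unfocused peaks, the far ones were 6.26% and 13.9%.

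Peak-poor regions were defined as the largest interval between neighbouring Ishikawa centres on each autosome, with 1 Mb on either side. On most chromosomes this interval is several Mb long, for example 4.44 Mb on chromosome 10, 11.6 Mb on chromosome 16 and 21.3 Mb on chromosome 1. It is 0.683 Mb on chromosome 13, 0.958 Mb on chromosome 22 and 1.00 Mb on chromosome 14, where the margins together are longer than the interval. Which annotated features these intervals hold was not analysed here. The name refers to these intervals and their margins, not to the surroundings of each site. Within 1 Mb, the sites in these regions had a median of 9 Ishikawa peaks, against 31 for the sites outside. Yet chr14:77866289-77866543 counted as inside through the margin, with 45 Ishikawa peaks within 1 Mb. In turn, chr16:65200593-65200847 counted as outside, with 0. Since the regions come from the Ishikawa list, as does the distance, the share of sites in them is no independent result. They held 51 of the 355 sites (14.4%), against 60 of 663 unfocused far peaks (9.05%), 13 of 1530 nearby sites, 39 of 2967 overlapping sites and 1.92% of all autosomal Hec1A peaks. Of the 51 sites 35 had high clonality, and their highest signal was 1243, against 70.5 in the 304 sites elsewhere. The input libraries of Hec1A were not analysed here.

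The highest signals included 4 neighbouring sites on chromosome 10. They spanned 13.7 kb, from chr10:42385091-42385345 to chr10:42398517-42398771 in hg19. Their signals, in order of position, were 1243, 367, 617 and 196 normalised tags, with clonal folds of 0.88, 1.67, 1.47 and 1.52. Tags per unit of score were 10.0, 6.32, 11.0 and 3.51, where the median site had 1.25. All 4 lay inside the interval without Ishikawa peaks, and their local background was between 26.4 and 54.2 normalised tags, far above the median of 0.864. Of these 4 sites, those with signals of 1243, 617 and 367 were among the 5 of highest signal. The other sites of the 5 were chr21:11186489-11186743 and chr19:27738370-27738624. Their signals were 403 and 218, and their clonal folds 1.95 and 1.90. Both lay in peak-poor regions, so signal alone ranked sites of this kind first.

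**Figure D3:**
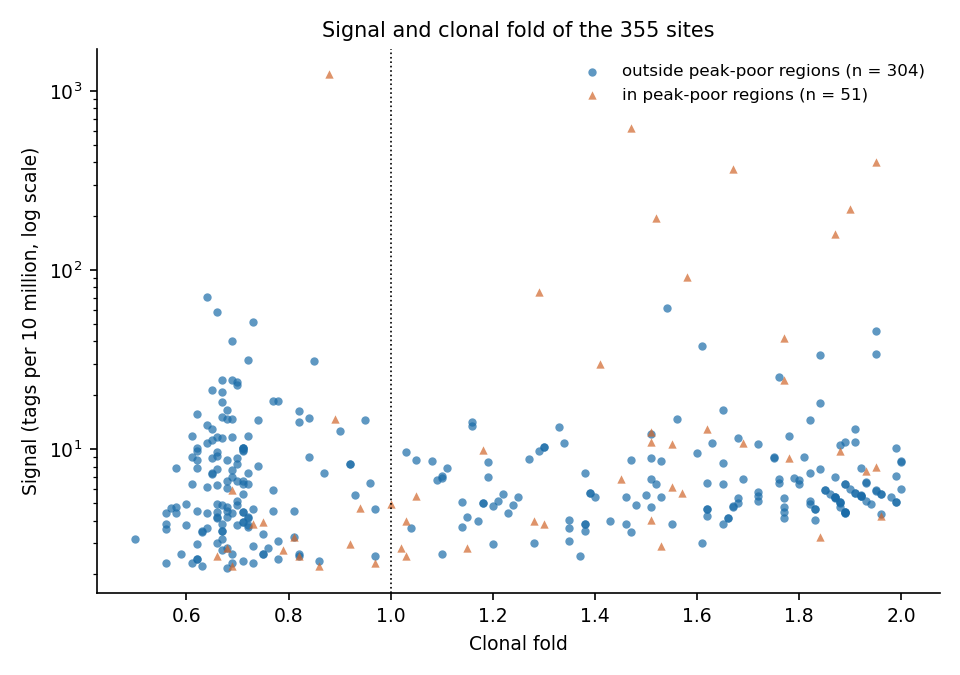
Signal in normalised tags (vertical log axis) against clonal fold (horizontal axis) for each of the 355 sites. Orange triangles are the 51 sites in peak-poor regions and blue points the 304 others. Signals above 70.5 are found in triangles only, most of them at a clonal fold above 1, and blue points cluster near 0.7 and towards 2.

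Ranked by score, the first 20 sites were split evenly, with 10 in peak-poor regions and 10 outside them. Among the 10 outside, 8 had low clonality. These 8 combined a sharp centre, a position outside peak-poor regions and spread tags.

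The site of highest score outside peak-poor regions was chr8:128227587-128227841. Its signal was 70.5 normalised tags, its fold over the local region 30.3 and its clonal fold 0.64. By score it ranked 64 among all autosomal Hec1A peaks and 52 among focused ones. The nearest Ishikawa centre lay 83.5 kb away, and 50 Ishikawa peaks lay within 1 Mb.

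On chromosome 11, the site chr11:102470719-102470973 had a signal of 58.3, a focus ratio of 0.976 and a local fold of 55.1. Its clonal fold was 0.66 and its local background 1.06 normalised tags. It lay 118 kb from an Ishikawa centre and 148 kb from any other Hec1A peak, with 55 Ishikawa peaks within 1 Mb. It had the largest local fold of the 8 sites.

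On chromosome 3, chr3:95060270-95060524 had a signal of 51.1, a local fold of 23.7 and a clonal fold of 0.73. An Ishikawa centre lay 63.7 kb away. This site was 1.39 Mb from the interval without Ishikawa peaks on that chromosome, just beyond the 1 Mb margin. Its local background of 2.16 was above the median of the 355 sites.

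On chromosome 7, chr7:31448035-31448289 had a signal of 40.1, a focus ratio of 0.966 and a local fold of 20.9. It was the most isolated of the 8 from Ishikawa peaks, with 275 kb to the nearest centre and 19 Ishikawa peaks within 1 Mb. The nearest Hec1A peak was 99.1 kb away. Its clonal fold was 0.69.

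On chromosome 19, chr19:46696462-46696716 had a signal of 31.4 and a local fold of 25.4. It lay in the densest surroundings of the 8, with 39 other Hec1A peaks and 71 Ishikawa peaks within 1 Mb, yet its nearest Ishikawa centre was 60.1 kb away. On chromosome 12, chr12:60660412-60660666 had a signal of 31.2, a focus ratio of 0.985 and a local fold of 38.1. Of the 8 it was the farthest from other Hec1A peaks, with the next Hec1A peak 518 kb away, and lay just past the distance threshold at 51.8 kb.

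The remaining sites of the 8 had equal signals of 24.2. The first, chr9:100476729-100476983, had a local fold of 21.5 and a clonal fold of 0.67, and the nearest Ishikawa peak, 81.5 kb away, had an Ishikawa signal of 45.2. The last, chr5:156486066-156486320, had a local fold of 18.6 and a clonal fold of 0.69, and had 3 further far focused sites within 1 Mb. Over the 8 sites tags per unit of score ranged from 0.968 at the site on chromosome 19 to 1.24 at the site on chromosome 12, so none had the tag excess seen on chromosome 10.

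The other sites of the 20 not yet named had high clonality. Outside peak-poor regions they were chr16:33953044-33953298, with a signal of 61.1 and a clonal fold of 1.54, and chr2:133026658-133026912, with a signal of 37.5 and a clonal fold of 1.61. The site on chromosome 16 lay 1.08 Mb from the interval without Ishikawa peaks. The site on chromosome 2 had a local background of 8.15 normalised tags and a focus ratio of 0.916. In peak-poor regions, beside those already named, they were chr4:49151658-49151912 with a signal of 159, and 3 sites on chromosome 16, at chr16:46417141-46417395, chr16:46403569-46403823 and chr16:46426190-46426444, with signals of 75.8, 91.6 and 41.7. Their clonal folds ran from 1.29 to 1.87.

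The distance to the nearest Ishikawa centre had a median of 83.5 kb and quartiles of 62.7 and 148 kb. Between 50 and 100 kb lay 216 sites (60.8%), from there to 250 kb 93 sites, from there to 500 kb 38 sites, from there to 1000 kb 6 sites, and beyond that 2 sites. The median signal was 5.77 (5.38 to 6.50), 5.59 (5.10 to 7.06) and 6.29 (4.33 to 7.97) in the first 3 bands, and the 3 intervals overlapped. The low-clonality share was 48.1% (41.6% to 54.8%), 38.7% (29.4% to 48.9%) and 39.5% (25.6% to 55.3%) in these bands. Sites in peak-poor regions were 7 of 216, 20 of 93 and 17 of 38. The Ishikawa peak nearest to a site had a median Ishikawa signal of 7.62, against 9.83 over all autosomal Ishikawa peaks.

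**Figure D4:**
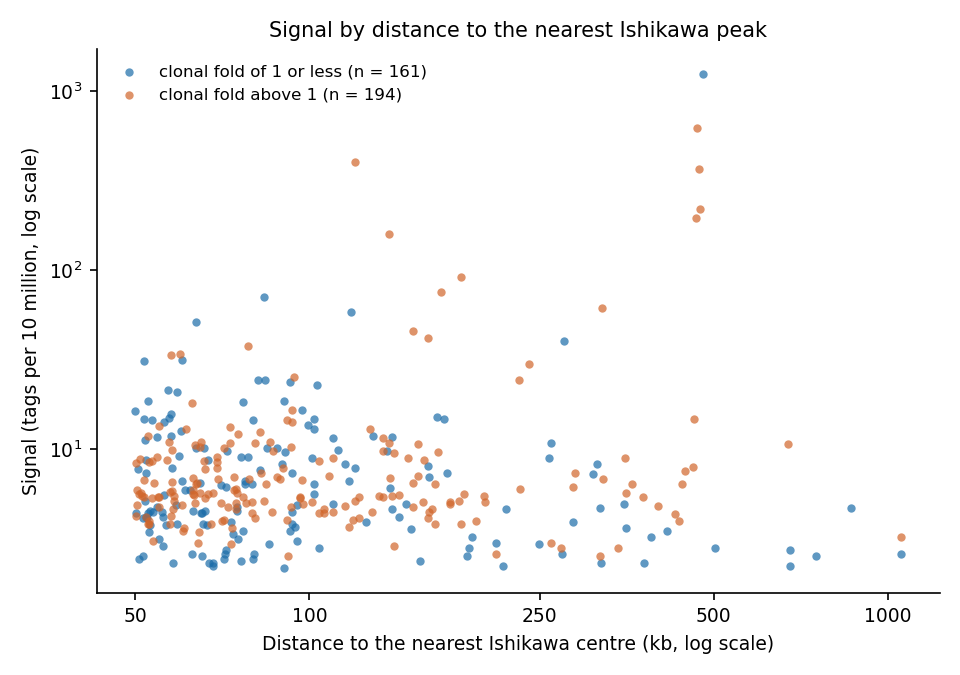
Signal in normalised tags (vertical log axis) against the distance to the nearest Ishikawa centre in kb (horizontal log axis) for the 355 sites, blue for a clonal fold of 1 or less and orange above 1. Most sites lie between 50 and 100 kb, and the column of high points near 470 kb is the group on chromosome 10 with the site on chromosome 19.

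The 5 sites farthest from Ishikawa peaks all had signals below the median of the 355 sites. The farthest, chr21:14353193-14353447, lay 1055 kb from the next Ishikawa centre and had a signal of 3.22 and a clonal fold of 1.84. At nearly the same distance, 1054 kb, chr16:65200593-65200847 had a signal of 2.59 and a clonal fold of 0.69. It was the only one of the 5 outside a peak-poor region, with no Ishikawa peak and 1 other Hec1A peak within 1 Mb. On chromosome 9, chr9:44993093-44993347 had a signal of 4.68 with a deposited local fold of 5142, which reflects a local background near 0 (0.000910 normalised tags), and chr9:44879558-44879812 had a signal of 2.52. The last, chr8:43838576-43838830, had a signal of 2.24, and its focus ratio of 0.970 rested on a score of 32.0, the lowest the caller accepted.

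Within 1 Mb of a site there were at the median 9 other Hec1A peaks and 30 Ishikawa peaks. Overlapping sites had 12 and 46, and nearby sites 12 and 45. A lower Ishikawa number follows in part from the distance rule. Only 2 of the 355 sites had no Ishikawa peak within 1 Mb. Another Hec1A peak centre within 50 kb was found for 139 sites, or 39.2% (34.2% to 44.3%), against 52.6% of nearby and 51.8% of overlapping sites. This too is partly set by the rule, because a neighbour on an Ishikawa peak would have removed the site. Of the 139 nearest neighbours 52 were themselves far focused sites, 80 were unfocused, and none overlapped an Ishikawa peak. Within 10 kb, the share was 17.2% for the far focused sites, against 16.6% of nearby sites and 15.9% of overlapping sites. It was 52.9% (27 of 51) for the far focused sites in peak-poor regions and 11.2% (34 of 304, interval 8.11% to 15.2%) for those outside them.

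Most far focused sites had no other far focused site within 50 kb, although 139 had another Hec1A peak of some kind within that distance. A high share is set in part by the small number of sites, and no share for other sets of this size was computed. With neighbours joined at up to 50 kb, 289 of the 355 sites (81.4%, interval 77.0% to 85.1%) had no other such site beside them, 40 sites formed 20 pairs, and 26 sites formed 7 longer runs. Of the 26 sites in longer runs 22 had high clonality, and 5 of the 7 runs touched peak-poor regions. Beside the run on chromosome 10, runs of 4 lay on chromosome 4 between 49100494 and 49151912, on chromosome 16 between 33873934 and 33953298 and between 46403569 and 46452726, and on chromosome 17 between 45213021 and 45234497. Runs of 3 lay on chromosome 5 between 49405783 and 49484999 and on chromosome 8 between 43831457 and 43838830. The run on chromosome 17 was far from peak-poor regions. Its sites had signals of 10.3 to 25.2, local folds of 4.17 to 13.3, clonal folds of 1.16 to 1.76, and lay 73.0 to 94.2 kb from Ishikawa centres. No run of 3 or more consisted of low-clonality sites alone.

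By chromosome, the largest numbers were 38 sites on chromosome 2, 32 on chromosome 5 and 30 on chromosome 3. Set against the focused peaks of the same chromosome, the share of far sites was highest on chromosome 21 with 20.3% (12 of 59, interval 12.0% to 32.3%), followed by chromosome 16 with 12.7% (8.07% to 19.4%), chromosome 5 with 12.4% (8.89% to 16.9%) and chromosome 20 with 11.7% (7.32% to 18.1%). It was lowest on chromosome 6 with 3.93% (2.21% to 6.90%), against 7.32% over all autosomes. These intervals are not adjusted for the 22 chromosomes, and they treat neighbouring sites as independent. The 17 sites on chromosome 16 included both runs of 4 named above for that chromosome. The composition differed as well: 23 of the 32 sites on chromosome 5 and 9 of the 12 on chromosome 21 had high clonality, whereas 18 of the 30 on chromosome 3 and 10 of the 16 on chromosome 20 had low clonality. Clonality shares of all Hec1A peaks by single chromosome are not given here, so these counts show no trait particular to the far focused sites. Chromosomes 3, 5 and 17 together held 30.7% of all high-clonality autosomal Hec1A peaks and 15.8% of the low-clonality ones.

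Low-clonality sites outside peak-poor regions numbered 145, or 4.47% (3.81% to 5.24%) of the 3243 focused peaks of that kind. Chromosome 21 again had the highest share, with 8.57% from 3 of 35 peaks (2.96% to 22.4%). It was followed by chromosome 20 with 8.33% (4.28% to 15.6%), chromosome 3 with 8.02% (17 of 212, interval 5.07% to 12.5%), chromosome 10 with 6.43% (3.63% to 11.2%) and chromosome 16 with 5.49% (2.37% to 12.2%). On chromosome 5 it was 4.61% (7 of 152), near the share over all autosomes. The median local background of the far focused sites was highest on chromosome 17 with 1.17 normalised tags, followed by 1.06 on chromosome 3 and 1.02 on chromosome 2. Chromosome 5, with 0.982, was also below chromosomes 19 and 12. Chromosomes 3, 5 and 17 together held 77 of the 355 sites (21.7%, interval 17.7% to 26.3%), against 24.1% of unfocused far peaks, 21.7% of nearby sites, 16.4% of overlapping sites and 20.1% of all autosomal Hec1A peaks.

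**Figure D5:**
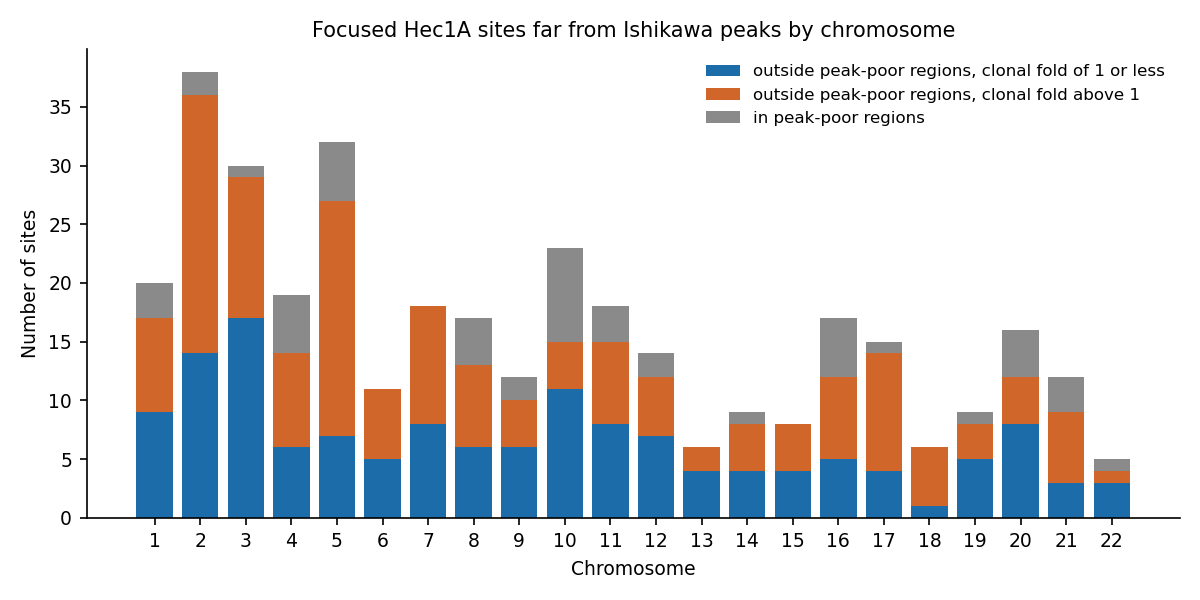
Number of far focused sites on each autosome (horizontal axis), split into sites outside peak-poor regions with a clonal fold of 1 or less (blue), outside with a higher clonal fold (orange), and in peak-poor regions (grey). Blue makes up 17 of 30 sites on chromosome 3 and 7 of 32 on chromosome 5.

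The 145 low-clonality sites outside peak-poor regions had a median signal of 6.08 (4.61 to 7.34), with quartiles of 3.77 and 10.2 and a highest value of 70.5. Their median local fold was 6.93 (6.37 to 7.65), and 55 of them (37.9%) reached a fold of 8. None had more than 2 tags per unit of score. Low-clonality overlapping sites had a median signal of 8.81 (8.53 to 9.16) and a median local fold of 9.29 (9.02 to 9.57), and nearby sites of that kind 6.43 (6.01 to 6.64) and 6.81 (6.32 to 7.07). The intervals of far focused and nearby low-clonality sites thus overlapped, and those of overlapping sites lay above both.

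Sites with a higher focus ratio had a higher median signal, as in the nearby and overlapping classes. From 0.85 to below 0.9 there were 209 sites with a median signal of 5.17 and a median local fold of 5.93, from 0.9 to below 0.95 there were 107 with 7.34 and 8.07, and from 0.95 there were 39 with 9.93 and 18.2. Overlapping sites had median signals of 6.85, 10.3 and 27.4 in the same bands. Of the 39 sharpest sites 18 lay in peak-poor regions. The low-clonality share was 43.5% (37.0% to 50.3%), 49.5% (40.2% to 58.9%) and 43.6% (29.3% to 59.0%) over the bands, with overlapping intervals.

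The sites nearest to the thresholds are given as examples. Just inside the focus threshold, at 0.851, were chr21:36147077-36147331 with a signal of 6.29, chr1:142536605-142536859 with 12.5 and chr3:188599027-188599281 with 4.47, and just outside, at 0.849, were peaks on chromosomes 22, 17 and 17 with signals of 3.08, 5.24 and 5.10. Just inside the distance threshold were chr21:40191909-40192163 at 50.04 kb with a signal of 16.4, chr9:127071989-127072243 at 50.14 kb with a local fold of 6.34 and chr11:72442875-72443129 at 50.20 kb with a signal of 4.26. Just outside it were peaks on chromosomes 12, 4 and 15 at 49.95, 49.63 and 49.48 kb with signals of 12.9, 5.24 and 12.4.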

How the data were processed

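The values are the authors' own and were used within their list. Peaks had been called with findPeaks in its factor style after each line's ChIP tags had been pooled, per the file headers, at a width of 254 bp in Hec1A and 353 bp in Ishikawa. The submitters' processing notes list HOMER 4.7.2, Bowtie 1.1.2 and SAMtools 1.3.1, with hg19 as build. The deposited signal is a tag number per 10000000 tags, and the deposited focus ratio a fraction. The deposited fold over the local region and the deposited clonal fold are ratios, and the deposited score is a tag number.

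Centres, distances, overlaps, shares with Wilson and Newcombe intervals, and medians with exact binomial order-statistic intervals were computed with numpy 2.4.6, pandas 2.3.3, scipy 1.17.1 and statsmodels 0.14.6. The distance and interval code was tested on simulated lists. Named sites are the 20 of highest score, the 5 of highest signal, the 5 farthest and the runs of 3 or more. The members, comparison chromosomes and named-site rule were chosen with earlier results of these data known. No hg19 sequence or annotation was used here, so genes and motifs are not reported.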

Additional observations from a re-analysis of the deposited data

How the results depend on the processing

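Over the settings, 62 alternatives were computed, of which 34 stayed within the interval of the reported value (or 1.5 times for a number of sites) and 28 moved. The number of sites was 591 and 146 at a focus ratio of at least 0.80 and 0.90, 796, 139 and 46 at distances of 20, 100 and 250 kb, 161 with low clonality, 135 at a local fold of at least 8, and 145 with low clonality outside peak-poor regions, a combination chosen after seeing the data. These changes follow from the thresholds. The median signal was 5.03 and 7.34 at focus ratios of 0.80 and 0.90, 5.17 at 250 kb, 4.96 with low clonality and 9.72 at a local fold of at least 8. The median local fold was 5.97 and 8.86 at the focus ratios, and 7.36 and 7.66 at 100 and 250 kb. The median local background was 0.732 at 250 kb and 0.788 with low clonality. The share with a Hec1A neighbour within 50 kb was 45.9% at a focus ratio of 0.90, 46.0% and 52.2% at 100 and 250 kb, 32.9% outside peak-poor regions and 32.4% with low clonality in addition. With neighbours within 20 and 100 kb it was 25.1% and 59.4%. The share on chromosomes 3, 5 and 17 was 17.1% at a focus ratio of 0.90 and 4.35% at 250 kb. For these values the cause was not tested. The low-clonality share stayed between 41.0% and 47.9% in each of the 7 alternatives that could change it. No paired analysis was possible because each list came from pooled tags, and single libraries could not be left out for the same reason. Alternatives for gene position and motifs were not run.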

Other observations

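Outside the autosomes, the same thresholds were met by 10 of 149 focused Hec1A peaks on chromosome X (6.71%), of which 7 had low clonality, with a median signal of 7.06 and a highest signal of 49.4 normalised tags. On chromosome Y they were met by all 22 focused Hec1A peaks, of which 2 had low clonality. Both lines are endometrial, and the source of the tags placed on chromosome Y was not tested. These 22 peaks are therefore not shown to be FOXA1 binding. On the mitochondrial chromosome no Hec1A peak reached the focus ratio.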
